A study of Rattus norvegicus with 142 samples.

Results

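The pups that had more seizures during the hypoxic episode were compared with those that had fewer, in the cortex of one cohort of young rats. The members were the cortex libraries of the treatments HS and HS+NBQX whose labels give the seizure count of the pup as a number. There were 45 such libraries, 21 HS and 24 HS+NBQX, among 72 cortex libraries and 142 libraries in the whole series, and each came from a different pup. A further 2 cortex HS libraries, both at 1 h, carry the entry >5 in place of a number and were left out.

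All animals were Long-Evans rat pups treated at postnatal day 10. HS pups spent 15 minutes at 5% O2 and then received vehicle, and HS+NBQX pups spent the same time in hypoxia and then received NBQX. The noHS pups went through a sham event in normal air and also received vehicle. Injections were intraperitoneal and 4 were planned over 48 h. Cortex and hippocampus were taken 1, 6, 12, 48 or 168 h after hypoxia. The 45 pups came from 10 litters, with 2 litters at each time, each sampled at a single time and holding pups of both treatments. The arrays of 40 libraries were on one plate and those of 5 libraries, all of 1 litter at 168 h, on another, so that this litter and its plate cannot be told apart. The count was made during hypoxia, before any injection, so both treatments carry the same kind of measure.

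Low oxygen at this age provokes seizures in rat pups, and excessive firing of cortical neurons is known to switch on activity-dependent genes through calcium entry and glutamate receptors. NBQX blocks the AMPA type of glutamate receptor, which carries most fast excitatory transmission in the brain. The question of the comparison is whether the pups that seized more often also differed more in cortical gene expression.

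Expression was measured on arrays, as 1 intensity per probe set and library for 24249 probe sets, of which 66 are controls of the array maker. The median intensity of the 45 arrays lay between 65.7 and 78.2, and no 2 arrays held identical values. Each of the 45 libraries correlated better with the mean of the noHS cortex libraries than with that of the noHS hippocampus libraries. No table used here gives the gene of a probe set, so markers of cell types could not be checked and identifiers stand in for gene names. The control probe sets are the exception, since their identifiers name the transcript.

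The count ranged from 5 to 17 seizures over the 45 pups, with a mean of 10.5 ± 2.93 (SD). HS pups had 7 to 17 seizures, with a mean of 11.5 ± 3.04 (SD, n = 21). HS+NBQX pups had 5 to 14 seizures, with a mean of 9.58 ± 2.57 (SD, n = 24). The treatments overlapped over most of this range, although the pups with the highest counts were HS pups.

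At 1 h the HS counts were 7, 13 and 7 and the HS+NBQX counts were 7, 7, 9 and 9. At 6 h they were 17, 10, 8 and 8 in HS and 11, 12, 7, 8 and 5 in HS+NBQX. At 12 h they were 15, 12, 13 and 14 in HS and 12, 8, 10, 9 and 10 in HS+NBQX. The 12 h groups met only at a count of 12, and no HS pup there had fewer. At 48 h the counts were 9, 15, 12, 12 and 7 in HS and 11, 11, 11, 14 and 10 in HS+NBQX. At 168 h they were 10, 15, 13, 14 and 10 in HS and 12, 5, 14, 6 and 12 in HS+NBQX. The HS+NBQX group at 168 h thus held counts as low as 5 and as high as 14.

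**Figure D1:**
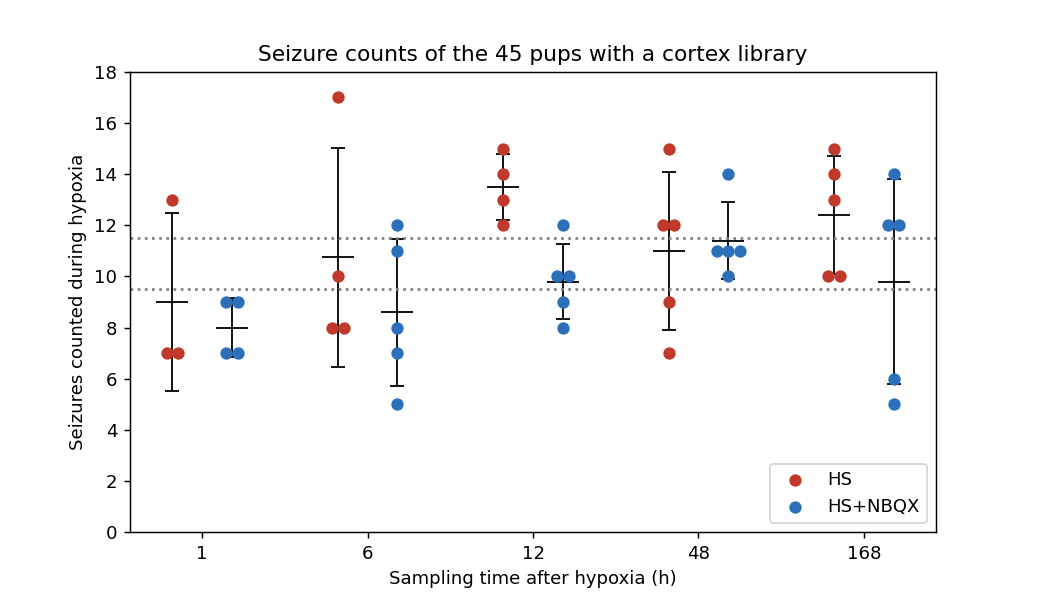
Seizures counted during hypoxia (vertical axis, number) for each of the 45 pups, by sampling time after hypoxia (horizontal axis, h) and treatment (red HS, blue HS+NBQX). Points are pups, black bars are the group mean ± SD, and the dotted lines separate counts of 9 or fewer, 10 or 11, and 12 or more. HS pups had the higher mean at 4 of the 5 times.

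Averaged over the 5 times, the HS pups had 1.81 more seizures than the HS+NBQX pups, with the higher mean at 4 of the 5 times (two-sided permutation test within times, p = 0.0285, and p = 0.0854 after Benjamini-Hochberg adjustment over 3 tests of the count). The difference was 3.7 seizures at 12 h and -0.4 at 48 h. Time accounted for 14.5% of the sum of squares of the count (permutation p = 0.174) and litter for 16.7% of what remained within treatment and time (permutation p = 0.301). The spread within treatment and time was 2.74 (SD), so most of the variation in count lay between pups of the same group.

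The count was closely tied to how soon the first seizure came. Time to the first seizure was recorded for 40 of the 45 pups, and 9 of them were entered at 0 s. Among the pups with 9 or fewer seizures the first seizure came after 66 to 443 s, with a median of 211.5 s (n = 16). Among those with 12 or more it came after 0 to 150 s, with a median of 9.5 s (n = 16). The pups with 10 or 11 seizures lay between, from 0 to 172 s with a median of 62.5 s (n = 8). The earliest pups of the low class and the latest of the high class overlapped between 66 and 150 s.

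After removal of the mean of each treatment and time, the count and log2 of the time to first seizure plus 30 s correlated at Pearson's r = -0.70 (two-sided permutation test within treatment and time, p = 9e-05, adjusted p = 0.00081 over 9 measures). Spearman's rho was -0.66 (p = 0.00036, adjusted p = 0.00324). Without the 2 pups farthest from the median count r was -0.62 (permutation p = 0.00156). In HS pups alone r was -0.75 (n = 19, permutation p = 0.0025) and in HS+NBQX pups alone it was -0.65 (n = 21, permutation p = 0.0234). The difference between these 2 correlations was -0.10 (permutation p = 0.567, adjusted p = 0.949). Within litters r was -0.63 (permutation p = 0.00805, adjusted p = 0.0725), and without the pups of 6 h it was -0.62 with an adjusted p of 0.0558, so both miss the threshold.

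**Figure D2:**
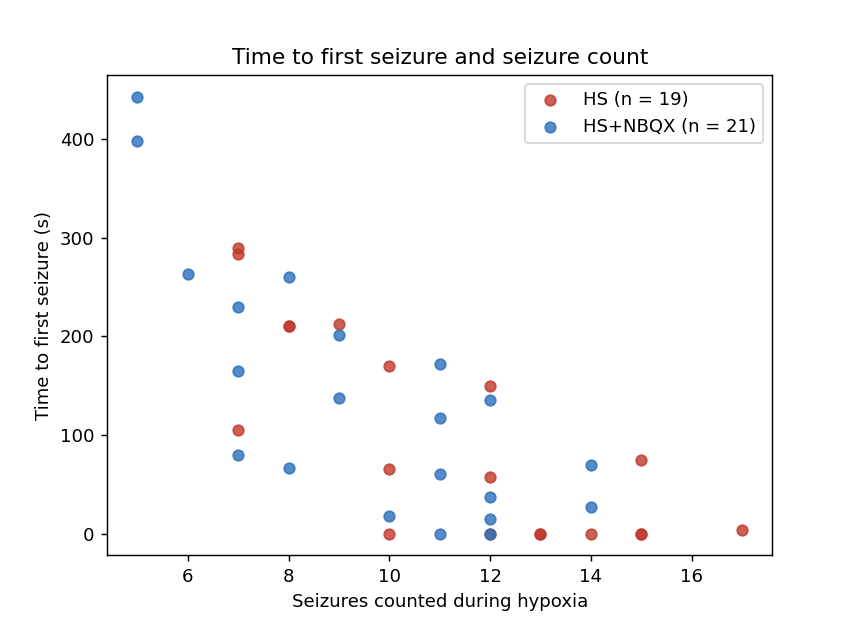
Time to the first seizure (vertical axis, s) against the number of seizures counted during hypoxia (horizontal axis) for the 40 pups with both, by treatment (red HS, n = 19; blue HS+NBQX, n = 21). Points are pups, and the times fall from up to 443 s at the lowest counts to 0 to 75 s at counts of 13 and above.

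The other measures of the pups did not follow the count past the threshold. Pups with 9 or fewer seizures weighed 19.3 ± 1.05 g and those with 12 or more 19.6 ± 0.922 g (SD, n = 17 and 18). Body temperature fell during hypoxia by a mean of 1.59 ± 1.05 °C in the lower class and 1.39 ± 0.823 °C in the higher class (SD). Within treatment and time, r with the count was -0.04 for weight, -0.01 for temperature before hypoxia, 0.04 for temperature after it and -0.05 for the fall, with permutation p from 0.75 to 0.947. The array measures came closer, with r = -0.26 for the upper quartile of an array's log2 intensities (permutation p = 0.0854, adjusted p = 0.384) and -0.27 for the mean of the bacterial hybridization controls (p = 0.158, adjusted p = 0.475). The upper quartile reached r = -0.48 within litters (permutation p = 0.0492, adjusted p = 0.221). The log2 ratio of the 3' to the 5' probe sets of GAPDH, beta-actin and hexokinase, a sign of RNA integrity, had r = 0.08 (permutation p = 0.547). The first 3 principal components of the libraries' deviations, which held 18.6%, 8.09% and 6.02% of the variance, had r of 0.18, -0.02 and -0.18 with the count (permutation p = 0.346, 0.897 and 0.289). The sign of a component is a convention, here that its score farthest from 0 is positive. The first component was mostly a difference between the 2 litters at 168 h, whose 10 libraries held 79.7% of its sum of squares. One of these litters scored 7.02 to 21.0 and the other, on its own plate, -19.3 to -9.44, against -8.37 to 9.33 at the other times. Their mean counts were 11.2 and 11 seizures. The fits below have no term for litter, and with litter as a fixed factor the slope on the count still had 0 probe sets called.

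No probe set passed the test for a change with the seizure count. The slope of log2 intensity on the count, with 1 mean per treatment and time, passed the threshold of 0.05 for 0 of 24249 probe sets (limma with Benjamini-Hochberg adjustment, 0% called, smallest adjusted p = 0.834). At an unadjusted p under 0.05 there were 1135 probe sets, or 4.68%, of which 407 had a positive and 728 a negative slope. The split by direction moved with the scaling of the arrays. It was 536 positive and 613 negative after quantile normalization, 604 and 512 after shifting every array to a common median, and 498 and 451 with the upper quartile of the array in the fit. Without the libraries of 6 h it was 408 and 436, and without those of 168 h it was 381 and 1171.

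The comparison of classes also called none. In the 35 libraries with 12 or more (mean 13.4 seizures, n = 18) or 9 or fewer (mean 7.41 seizures, n = 17), 0 probe sets were called (limma, 0% called, smallest adjusted p = 0.74) and 1076 had an unadjusted p under 0.05, 423 higher and 653 lower with more seizures. This split too moved with the scaling, to 565 higher and 490 lower after shifting to a common median, and was 411 and 363 without the libraries of 6 h. Only 6 of the 10 groups of treatment and time held both classes, and only these carry the comparison. With 11 or more against 10 or fewer, which used all 45 libraries, 0 were called and 717 had an unadjusted p under 0.05.

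The intervals say how far the change of a single probe set could lie from its estimate. They are not adjusted for the number of probe sets, so a change as large as they reach would not necessarily have been called. The slope was multiplied by 6 seizures, close to the distance between the class means. For the brighter 12125 probe sets, those at or above the median log2 intensity of 6.13, the 95% interval of this change reached 0.13 on the log2 scale to either side at the median. It lay wholly within a 2-fold change either way for 12122 of them, or 99.98%, and within 0.5 on the log2 scale for 12018, or 99.1%. For the dimmer 12124 it reached 0.47 to either side at the median, and the interval lay within a 2-fold change for 8659, or 71.4%. The largest fitted change per 6 seizures among the brighter probe sets was 0.56 on the log2 scale, against 2.09 among the dimmer.

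**Figure D3:**
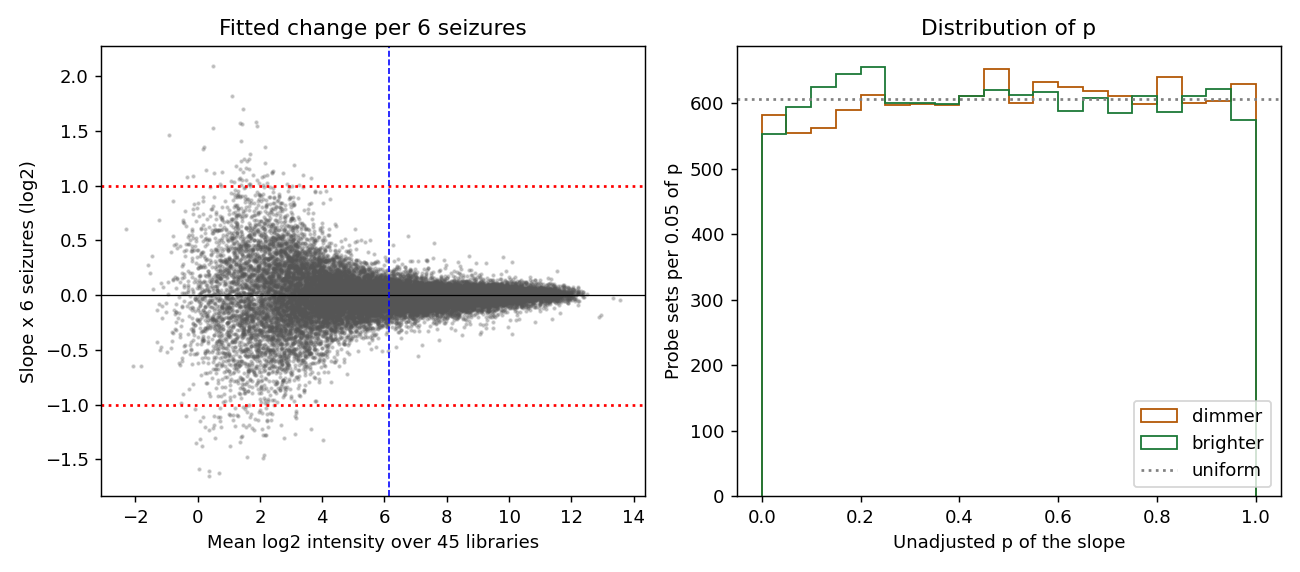
Left, the fitted change per 6 seizures (vertical axis, log2) of each of the 24249 probe sets against its mean log2 intensity over the 45 libraries (horizontal axis), with the 2-fold lines in red and the median intensity as a dashed line. Right, the number of probe sets (vertical axis) by unadjusted p of the slope (horizontal axis, bins of 0.05) for the brighter and the dimmer probe sets, with the level of a uniform spread dotted. The changes narrow with intensity, and the bin below 0.05 holds 553 brighter and 582 dimmer probe sets.

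The brighter probe sets with the smallest p of the slope are described here, since their values show what the fit rests on. They were chosen on these p-values and none was called. The signs of their slopes within groups and at single times, and the counts of pups above their group mean, follow largely from that choice and are given as a description. The first positive case, 1388569_AT, had log2 intensities from 6.67 to 7.74 with a median of 7.18 in pups with 9 or fewer seizures. In pups with 10 or 11 seizures it lay from 6.99 to 7.64 (median 7.20), and with 12 or more from 7.03 to 8.06 (median 7.61). The classes overlapped over most of this range, and 13 of the 18 pups with 12 or more seizures lay above the mean of their own group against 5 of the 17 with 9 or fewer. Its slope was 0.054 ± 0.014 (SE) log2 units per seizure, a 1.25-fold change over 6 seizures (limma, unadjusted p = 0.000348, adjusted p = 0.844). The slope within a group was positive in 9 of the 10 groups. The noHS libraries of cortex lay at 7.51 ± 0.456 (SD, n = 25).

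The next positive case, 1397845_AT, had medians of 8.17, 8.10 and 8.36 in the 3 classes from fewest to most seizures, within a range of 7.71 to 8.74. Its slope was 0.037 ± 0.0099 (SE) per seizure (limma, adjusted p = 0.94), positive in 9 of the 10 groups. It was lower in HS than in noHS cortex, by a log2 difference of -0.23 ± 0.054 (SE, limma adjusted p = 0.000888). The class median nearest to the noHS mean of 8.51 was that of the pups with most seizures. These medians are over pups of mixed treatment and time, in unlike shares per class. The difference between HS and noHS was also smaller in size than the median of 0.35 for the bacterial hybridization controls, described below.

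On the falling side, 1389814_AT had log2 intensities from 8.83 to 9.66 (median 9.36) with 9 or fewer seizures, from 8.81 to 9.41 (median 9.21) with 10 or 11 and from 8.50 to 9.32 (median 9.03) with 12 or more. Its slope was -0.045 ± 0.011 (SE) per seizure, a 1.21-fold change over 6 seizures (limma, unadjusted p = 0.000113, adjusted p = 0.834), negative in 8 of the 10 groups. The slope was -0.042 ± 0.015 (SE) in HS and -0.049 ± 0.016 (SE) in HS+NBQX. The noHS mean was 8.94 ± 0.261 (SD, n = 25), nearest to the median of the pups with most seizures, again over mixed treatments and times. HS and noHS did not differ past the threshold, at a log2 difference of 0.12 ± 0.070 (SE, limma adjusted p = 0.189).

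The other falling case, 1370842_AT, had medians of 6.55, 6.53 and 6.42 in the 3 classes, within 5.94 to 6.94, and a slope of -0.045 ± 0.011 (SE) per seizure (limma, adjusted p = 0.834). Its slope within a group was negative in all 10 groups. Its values in pups of the lowest and highest class still overlapped, between 6.26 and 6.70. In hippocampus, over 44 libraries with a count, 43 of them from these pups, the slope was -0.014 ± 0.013 (SE) for this probe set and 0.0041 ± 0.011 (SE) for 1389814_AT. For the positive cases it was -0.011 ± 0.013 (SE) for 1388569_AT and 0.019 ± 0.011 (SE) for 1397845_AT.

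**Figure D4:**
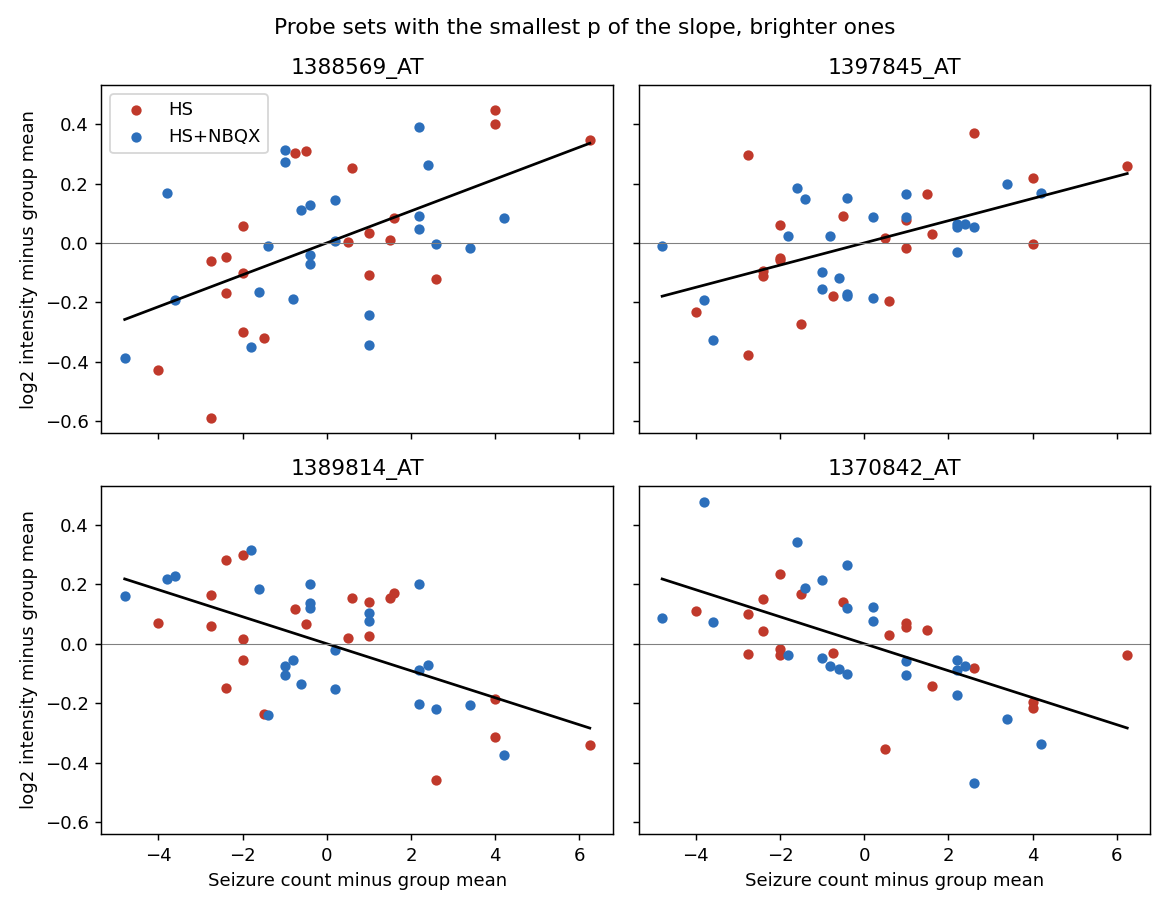
log2 intensity minus the mean of the pup's treatment and time group (vertical axis) against the seizure count minus that group's mean (horizontal axis) for the 4 probe sets with the smallest p of the slope among the brighter ones. Points are the 45 libraries (red HS, blue HS+NBQX) and lines are the fitted slopes, from -0.045 to 0.054 per seizure; the points scatter widely around each line.

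By sampling time the slope of 1388569_AT was 0.044 ± 0.042 (SE) at 1 h, 0.059 ± 0.024 at 6 h, 0.15 ± 0.060 at 12 h, 0.070 ± 0.033 at 48 h and 0.027 ± 0.024 at 168 h. The 12 h counts spread least, with an SD of 1.40 within treatment, and the errors were largest there. For 1389814_AT the slope was largest at 1 h, at -0.055 ± 0.034 (SE), and closest to 0 at 12 h, at -0.014 ± 0.048, well within its error. Over all probe sets the change of the slope between times was called for 0 (limma, moderated F test, 0% called, smallest adjusted p = 1), with 875 at an unadjusted p under 0.05.

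In the comparison of classes, 1382373_AT and 1393543_AT had the smallest p among the brighter probe sets that were higher with 12 or more seizures. Their log2 differences were 0.35 ± 0.081 and 0.35 ± 0.089 (SE, limma adjusted p = 0.997 for both). Among those that were lower, 1387178_A_AT differed by -0.31 ± 0.078 and 1370669_A_AT by -0.44 ± 0.12 (SE, adjusted p = 0.997 for both). For 1370669_A_AT, 14 of the 17 pups with 9 or fewer seizures lay above their group mean and 7 of the 18 with 12 or more did. Their slopes on the count itself were smaller relative to their errors, from 0.027 ± 0.016 (SE) for 1382373_AT to 0.042 ± 0.013 for 1393543_AT on the positive side.

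Each treatment was then given its own slope, within 1 fit of the 45 libraries. In HS 0 probe sets were called (limma, 0% called, smallest adjusted p = 0.78, 992 at an unadjusted p under 0.05) and in HS+NBQX also 0 (0% called, smallest adjusted p = 0.367, 866 at an unadjusted p under 0.05). The difference of the slopes was called for 0 (0% called, 789 at an unadjusted p under 0.05), with a smallest adjusted p of 0.05004, just above the threshold. That probe set, 1385791_AT, had a slope of -0.30 ± 0.069 (SE) in HS and 0.26 ± 0.075 (SE) in HS+NBQX, a difference of -0.56 ± 0.10. It is among the dim ones, with a mean log2 intensity of 3.33, above 19.7% of the probe sets, and its values ran from -1.33 to 4.49. The lowest value was that of HS replicate 1 at 6 h, the pup with 17 seizures, the highest count of all. Its adjusted p was 0.371 with a pseudocount of 32, which damps the scatter of low intensities, and over the alternatives it fell on either side of the threshold. Without the libraries of 1 h it was called, at an adjusted p of 0.00639, and without those of 48 h the smallest adjusted p of any probe set was 0.557.

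A library decided much of the HS+NBQX count at the unadjusted level. Without HS+NBQX replicate 2 at 168 h, a pup with 5 seizures, 1774 probe sets had an unadjusted p under 0.05 in place of 866. For the slope over both treatments the range over libraries left out in turn was 906 to 1466, with 0 called in each case.

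The probe sets that differed between HS and noHS pups were looked at next. HS differed from noHS in cortex for 7062 probe sets (limma over 48 libraries, 29.1% called), 3169 higher and 3893 lower. The added bacterial controls, which carry no information on the animal, differed as well. All 18 of their probe sets were called higher in HS, with a median log2 difference of 0.35, against a median of 0.31 over the 3169 higher probe sets. Their mean was 10.4 ± 0.129 (SD, n = 25) in the noHS libraries and 10.8 ± 0.351 (SD, n = 45) in the libraries with a count. Within the larger plate alone the median difference of the 18 was 0.38. Differences of this size between HS and noHS therefore cannot be told apart from a difference between the arrays, and its part in the 7062 calls was not tested.

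The HS+NBQX libraries share no library with that comparison, although they share its litters. These 24 libraries were fitted alone here, apart from the fit of 45 libraries above. In them the 3169 higher probe sets had a median slope of -0.0028 per seizure, the 3893 lower ones -0.00044 and all 24249 probe sets -0.0018. At an unadjusted p under 0.05, 26 of the 3169 had a positive and 77 a negative slope, as against 69 and 52 of the 3893 and 372 and 500 of all. These splits moved with the scaling. After shifting to a common median they were 42 and 57, 130 and 27, and 573 and 383, and after quantile normalization 33 and 71, 86 and 43, and 455 and 429. The median slope of the 3169 was 0.0013 with the common median, so its sign is not settled. Among the 96 that were more than 2-fold higher in HS, 48 had a positive slope in HS+NBQX pups and the median change over 6 seizures was 0.0064 on the log2 scale. On the larger plate alone 36 of the 96 were positive and this change was -0.056. Their median difference between HS and noHS was 1.16. In a fit of the HS pups alone, which entered both comparisons, 42 of the 96 slopes were positive and the median change over 6 seizures was -0.040. A further 29 probe sets were more than 2-fold lower in HS, with a median difference of -1.10. In HS+NBQX pups 10 of these 29 had a positive slope, or 34.5% against 46.9% of all probe sets. Their median change over 6 seizures was -0.20 in HS+NBQX pups. At an unadjusted p under 0.05 (limma), 0 of the 29 had a positive and 1 a negative slope there. In HS pups 14 of the 29 were positive and the median change was -0.18. Other scalings were not tested for these 29.

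The mean count was higher in HS than in HS+NBQX pups, so the difference between the treatments was also fitted with the count as a covariate. Over the same 45 libraries HS+NBQX differed from HS for 396 probe sets without the count (limma, 1.63% called), 70 higher and 326 lower, and for 290 with it (1.2% called), 44 higher and 246 lower. Of the 396, 252 were called again in the same direction with the count in the fit.

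The transcripts that the control probe sets name did not pass the threshold. The slopes of the 3 GAPDH probe sets, for a glycolytic enzyme used as a reference transcript, ran from -0.0091 to 0.0076 per seizure. Those of beta-actin, the cytoskeletal protein, ran from -0.0021 to 0.0024, and those of hexokinase, which phosphorylates glucose in the first step of glycolysis, from -0.026 to -0.0056 (adjusted p = 0.998 for each of the 9). Over 6 seizures AFFX_RAT_GAPDH_3_AT, at a mean log2 intensity of 12.1, changed by -0.038, and AFFX_RAT_BETA-ACTIN_3_AT, at 11.8, by 0.014.

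The hybridization controls, called bacterial throughout for short, are RNAs of bioB, bioC and bioD and of the phage gene cre. They are added to each sample in fixed amounts, so that they carry no information on the animal. Of their 18 probe sets, 17 had a negative slope on the count, with a median of -0.022 per seizure, and 5 had an unadjusted p under 0.05 (adjusted p = 0.998 to 0.999). The 18 averaged 9.37 on the log2 scale in HS+NBQX replicate 3 at 168 h, a pup with 14 seizures, and 10.3 to 11.4 in the other 44 libraries. Without that library all 18 slopes were negative, their median was -0.011 and 0 had an unadjusted p under 0.05 (limma). The part of this drift in other slopes was not tested.

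**Figure D5:**
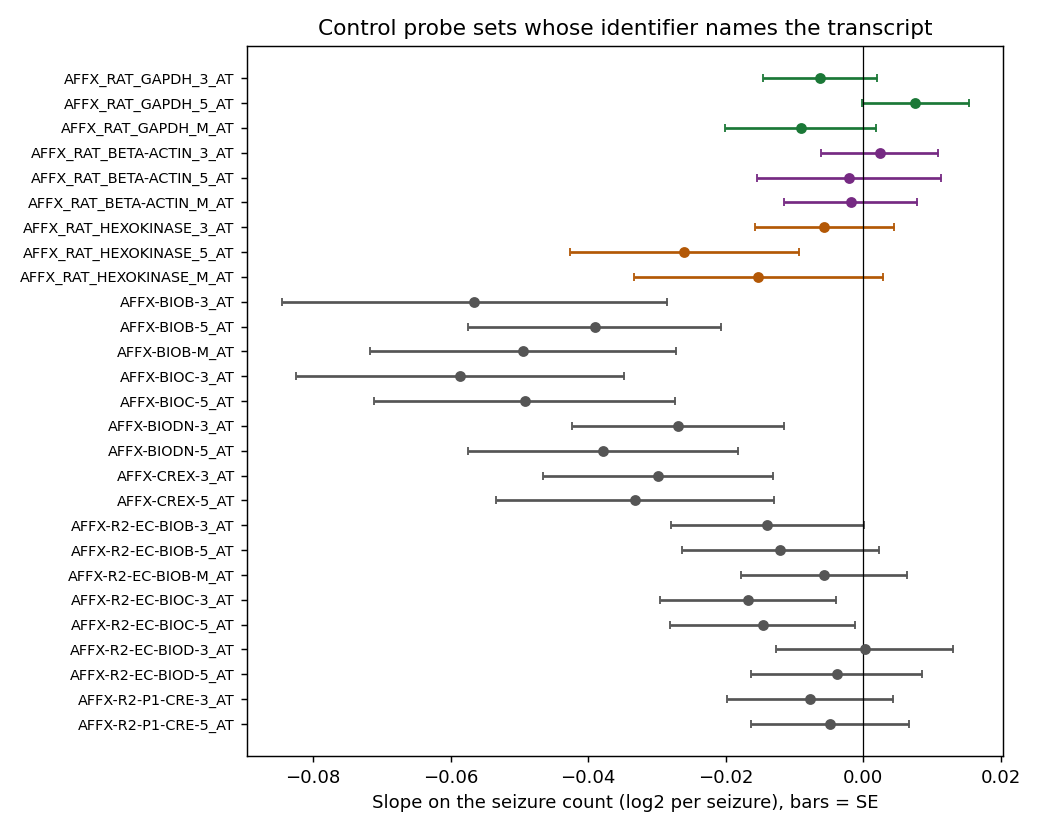
Slope of log2 intensity on the seizure count (horizontal axis, log2 per seizure) with its SE for the 27 control probe sets of GAPDH, beta-actin, hexokinase and the bacterial hybridization controls (rows). The hybridization controls lie at or left of 0, from -0.059 to 0.00026, and the GAPDH and beta-actin probe sets on either side of it.

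In 43 pups both tissues were measured, and the difference between cortex and hippocampus of the same pup was set against the count. The slopes of the tissues differed for 0 probe sets (limma, 0% called, smallest adjusted p = 0.909), with 982 at an unadjusted p under 0.05, 326 of them with the higher slope in cortex and 656 with the lower. This split was 489 and 469 after quantile normalization and 559 and 469 after shifting to a common median. Without the libraries of 168 h there were 1674, split 395 and 1279. In hippocampus itself the slope was called for 0 probe sets (limma over 44 libraries, 0% called, smallest adjusted p = 0.573) and 934 had an unadjusted p under 0.05.

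Time to the first seizure gave a second measure of severity in the same pups. The slope on log2 of the time plus 30 s was called for 0 probe sets over 40 libraries (limma, 0% called, smallest adjusted p = 0.846), and 1352 probe sets, or 5.58%, had an unadjusted p under 0.05, 510 with a positive and 842 with a negative slope. Without the libraries of 168 h there were 2070, or 8.54%, split 1185 and 885, with 0 called. The split was 804 and 567 after shifting to a common median. The smallest p belonged to 1371125_AT, at a mean log2 intensity of 8.79, with 0.090 ± 0.021 (SE) per doubling of the time plus 30 s. Its slope on the count had the opposite sign, -0.033 ± 0.0096 (SE) per seizure. On the falling side 1393584_AT had -0.077 ± 0.020 (SE, adjusted p = 0.846). It was higher in HS than in noHS cortex, by 0.72 ± 0.045 (SE) on the log2 scale (limma adjusted p = 4.96e-17), beyond the median of the bacterial controls.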

How the data were processed

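The authors deposited 1 linear intensity per probe set and HT Rat Focus array. Scans had been reduced with MAS5 (version not given in the sources used here). Each array had been multiplied by a constant that equalised the upper quartile of its present calls. Intensities at or below 0 (29 in the 45 libraries) were raised to 0.0526, the smallest positive value of the table, before log2, and no scaling was added.

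Slopes were fitted with limma 3.58.1 in R 4.3.3 (lmFit, eBayes with mean-variance trend) over 24249 probe sets, with Benjamini-Hochberg adjustment and a threshold of 0.05. Each fit had 1 mean per treatment and time. Permutations within treatment and time (1e+05, or 20000 for time, litter and differences between treatments) used Python 3.11.15, numpy 2.4.6 and pandas 2.3.3. Of the fits, only the slope on the count was tested on simulated data, with independent noise and no effect of litter or plate. The planted slopes were larger than any fitted among the brighter probe sets. Groups and counts came from the labels; litter and plate position from the labels and the study's design file.

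Members and lists were chosen with earlier results of these data known. Named probe sets are those with the smallest p in each direction, no array control, and with a mean log2 intensity at or above the median. Planned gene lists and markers were not run, for want of a gene table. The precision of a slope rests on the number of arrays, on the spread of the count and on how bright a probe set is.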

Additional observations from a re-analysis of the deposited data

Results flagged for a closer look

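In 115 groups of 4 or 5 pups, made of 13 measures and 9 groups of treatment and time with enough pups, the highest or lowest value was set against the rest, and 11 stood apart by Dixon's ratio. Its rate of about 1 in 20 by chance holds for continuous, normally distributed values, while counts and weights are whole numbers with ties. The probe sets were also chosen on these data, so the 11 cannot be set against that rate. For the seizure count it was HS+NBQX replicate 4 at 48 h, with 14 seizures against 10 to 11 in the others. For weight it was HS replicate 4 at 12 h, at 19 g against 20 g in each other pup, and HS+NBQX replicate 2 at 12 h, at 20 g against 21 g. The hybridization controls averaged 9.37 in HS+NBQX replicate 3 at 168 h against 10.3 to 10.5 in the others of its group.

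Among the probe sets named, 1388569_AT was low in HS+NBQX replicate 2 at 168 h, at 7.18 against 7.62 to 7.74, in the pup with 5 seizures. In HS+NBQX at 12 h, 1397845_AT was low in replicate 3, at 7.83, and 1389814_AT was high in replicate 2, at 9.66. In HS at 6 h, 1370842_AT was high in replicate 3, at 6.53, and 1393543_AT was high in replicate 1, at 7.64, the pup with 17 seizures. For 1387178_A_AT, HS replicate 2 at 168 h was high, at 8.09, and HS+NBQX replicate 1 at 6 h was high, at 7.74.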

How the results depend on the processing

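The counts of 0 called probe sets for the slope, the classes, the difference between the tissues and the time to first seizure stayed at 0 under every alternative run, which were quantile normalization, a common median, a pseudocount of 32, a filter at the 40th percentile, eBayes without trend, array weights, litter, the replicate block, plate column, times and libraries left out, and for the slope other forms of the count, samples and covariates. The smallest adjusted p of the slope ranged from 0.178 to 1 over them. The number called between HS and noHS was 6268 to 7176 with quantile normalization, a common median and the larger plate alone, chosen after seeing the data. The slopes of the 8 named probe sets kept their direction in each of 68 settings, in 45 of which 1 library was left out. This follows largely from their choice on these same data, and none of the 8 was called in any setting.

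The difference of the HS and HS+NBQX slopes was called for 1 probe set, 1385791_AT, with quantile normalization, with a common median, with the replicate block (1 called), with plate column as a random block and without the libraries of 1 h, and for 0 to 1 with 1 library left out; 15 of 45 such fits had a call, 14 of them this probe set and the other, without HS replicate 4 at 6 h, 1369386_AT. The smallest adjusted p of any probe set ranged from 0.00576 to 1 over the settings of this difference. The HS slope was called for 1 (1369386_AT) with the pseudocount, for 2 (1391293_AT and 1379428_X_AT) without 168 h, and for 0 to 1 with 1 library left out (1391293_AT without HS replicate 5 at 168 h). The HS+NBQX slope had 0 to 1 (1398055_AT without replicate 3 at 168 h). These were singled out after their values were seen, and the cause was not tested. With 1 mean per treatment, time and litter, chosen after seeing the data, 4 probe sets changed their slope over time (1367581_A_AT, 1368353_AT, 1370080_AT and 1376616_AT, adjusted p = 0.0234), and 0 otherwise.

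Same-numbered pups of the 2 treatments shared a litter in 18 of 21 pairs, yet their deviations correlated at a median of 0.0083 (-0.39 to 0.47), so the numbers were not taken as pairs. The replicate block gave 0 called for the other 7 slopes and left 1017 at an unadjusted p under 0.05 for the slope on the count.

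The correlation of the count with the time to first seizure was -0.63 within litters (adjusted p = 0.0725) and -0.62 without 6 h (adjusted p = 0.0558), where it missed the threshold, and -0.75 to -0.67 with 1 pup left out. Correlations near 0 changed sign. Weight had 0.056 within litters and -0.15 to 0.058 with 1 pup left out. Temperature before hypoxia had rho = 0.0022, r = 0.021 without 48 h, 0.079 without 168 h and -0.049 to 0.054 with 1 pup left out. Temperature after hypoxia had -0.076 within litters, -0.014 without 48 h and -0.024 to 0.13 with 1 pup left out. Its fall had 0.040 without 48 h and -0.13 to 0.057. The 3' to 5' ratio had -0.019 without 6 h and -0.020 to 0.14. The second component had 0.12 within litters, 0.057 without 6 h and -0.12 to 0.058.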
